A study of Mus musculus with 5 samples.

Results

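Gene levels in iPS cells were compared with those in lung epithelial cells that had received doxycycline (Dox) for 2 weeks, a step in reprogramming that had been stopped short of the iPS state. The comparison is the log2 value of the iPS array minus that of the 2WND+2W+D array, and it covers the 15436 genes, of 22180 with a probe of exactly 1 gene symbol, whose highest value over the 5 arrays of the series reached 4.78, the median of all deposited values. The values are read as log2, since their scale is not stated. Each condition is 1 Affymetrix Mouse Gene 2.0 ST array, so a difference of 1 on the log2 scale is 2-fold, no value has a replicate check, and no test could be run. The iPS array holds cells that the labels give only as iPS, from adult lung, and neither their origin, their Dox history nor their medium is given in the sources used here. The 2WND+2W+D array holds alveolar epithelial type II (AEC-II) cells of mice with the transgenes R26-rtTA and Col1a1::tetO-4F2A, in which Dox switches on Oct4, Sox2, Klf4 and c-Myc (OSKM). These cells were sorted as CD45-negative, CD31-negative and EpCAM-positive, kept without Dox for 2 weeks in epithelial medium, in Matrigel over a layer of mouse embryonic fibroblast feeders, then passaged and given Dox for 2 weeks in ES medium. The other 3 arrays hold freshly isolated AEC-II cells (Day0), cells after 2 weeks without Dox (2WND) and cells kept for 2 further weeks after withdrawal of Dox (2WND+2W+D+2W-D), and they are used here to place each level. The RNA of each group came from separate samples in equal amounts. Whether these were pooled before hybridization, and whether the feeders were taken away before extraction, is not stated. Medium may differ between the 2 arrays along with cell state, and their parts in any difference cannot be told apart.

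Reprogramming by OSKM replaces the gene program of a somatic cell with that of the early embryo. Transcription factors such as NANOG, SOX2 and OCT4 form a network that maintains itself in iPS cells and in embryonic stem cells, and that in mouse also includes factors of the naive state, which resembles the inner cell mass. AEC-II cells, by contrast, make and recycle pulmonary surfactant and are the progenitors of the thin AEC-I cells that line the alveolus. Somatic genes are usually silenced before the endogenous pluripotency network becomes active, so a short pulse of the factors can stop before that network starts.

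The arrays had medians of 4.77 (iPS) and 4.82 (2WND+2W+D), within the range of 4.71 to 4.83 of all 5. Of 15 housekeeping genes, 11 were within 2-fold, 2 were higher and 2 were lower in iPS, with a median log2 difference of 0.49. The 7 markers of pluripotent cells all reached 4.78 on the iPS array, where they lay between 5.40 and 12.15, against 1 of 7 on the 2WND+2W+D array, where they lay between 3.16 and 5.32. The 7 markers of AEC-II cells lay between 3.55 and 6.92 on the iPS array and between 9.01 and 13.43 on the 2WND+2W+D array. These markers therefore set the iPS array apart from the 2WND+2W+D array. They do not tell the 2WND+2W+D array from the other arrays of lung cells, where Sftpc, for example, lay between 13.43 and 13.49. Markers of other cells reached 4.78 as well. All 7 fibroblast markers reached 4.78 on both arrays, at 6.29 to 10.27 in iPS and 9.37 to 12.22 in 2WND+2W+D, and all 5 smooth muscle markers did so too. Of 5 macrophage markers 4 reached it on each array. Of the 15436 genes compared, 13365 reached 4.78 on the iPS array and 13440 on the 2WND+2W+D array. Reaching this level therefore does not by itself show that a cell type was present. These are bulk RNA samples, in which fewer cells of a type and less RNA per cell cannot be told apart.

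In iPS, 2490 of the 15436 genes (16.1%) were at least 2-fold higher than in 2WND+2W+D and 2611 (16.9%) were at least 2-fold lower, while 10335 were within 2-fold. The median difference over all genes compared was -0.01. The robust spread of the differences was 0.95 on the log2 scale, against 0.23 between 2WND+2W+D+2W-D and 2WND. At 8-fold or more, 339 genes were higher and 326 lower, and at 64-fold or more, 15 were higher and 18 lower. Many of the differences run into the bottom of the scale, where the array gives no detection call. Of the genes higher in iPS, 613 lay below 4.78 on the 2WND+2W+D array, and of the genes lower in iPS, 645 lay below it on the iPS array. The fold of a named gene is therefore counted from 4.78 where 1 of its values lies below, and is given as at least that much. With every value below 4.78 raised to it, 2272 genes (14.7%) were higher and 2348 (15.2%) lower. The filter also bears on direction. A gene that passed it through the iPS array alone could not be lower in iPS. One that passed through the 2WND+2W+D array alone could not be higher. The threshold itself falls in a dense part of the distribution, with 1164 genes within 0.1 of it. Elmo1 (inside) and Zfp729a (outside) bracket it on one side at 1.0011 and 0.9999, and Tnfrsf14 and Micalcl do so on the other at -1.0003 and -0.9999.

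The genes past the threshold on each side took up different places on the other 3 arrays. The genes higher in iPS had a median level of 8.11 in iPS and 6.06 in 2WND+2W+D, and of 6.19 in Day0, 6.25 in 2WND and 6.29 in 2WND+2W+D+2W-D. Their median level was thus close to the same on every array of lung cells. The genes lower in iPS had a median level of 5.77 in iPS and 7.84 in 2WND+2W+D. On Day0 that median was 6.90, on 2WND 7.55 and on 2WND+2W+D+2W-D 7.60.

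**Figure D1:**
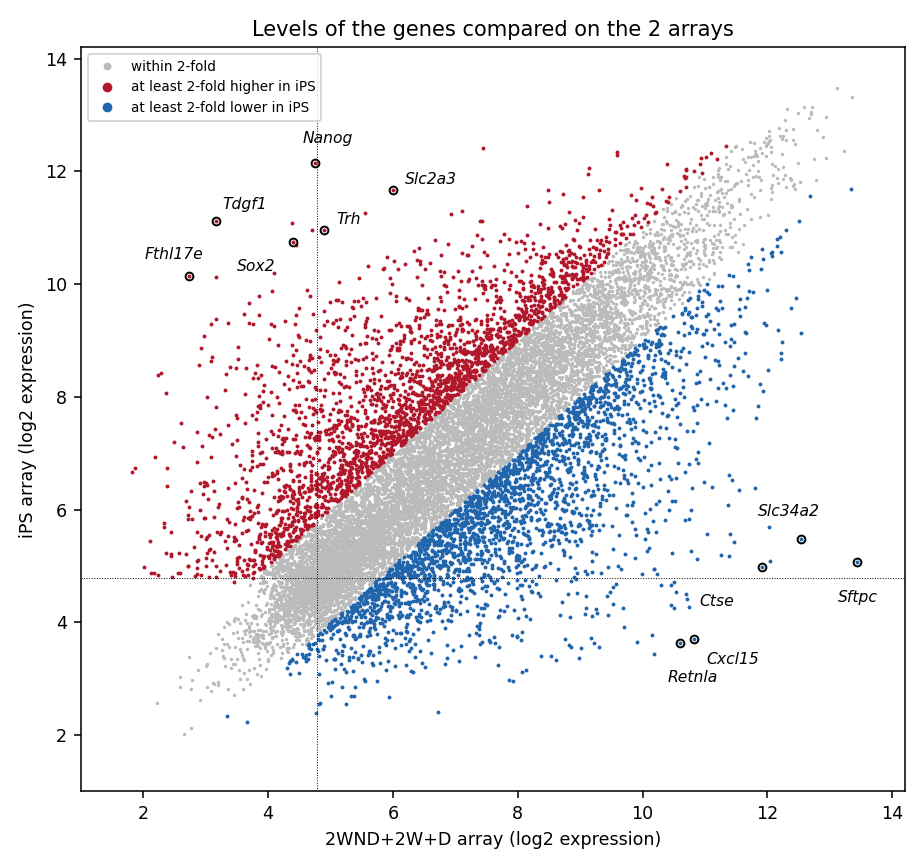
Log2 expression on the iPS array (vertical axis) against the 2WND+2W+D array (horizontal axis) for the 15436 genes compared, 1 point a gene, with genes at least 2-fold higher in iPS in red and at least 2-fold lower in blue, and dotted lines at 4.78, the median of all deposited values. The circled genes are among the most different in each direction, with Nanog at 12.15 in iPS and 4.75 in 2WND+2W+D and Sftpc at 5.06 and 13.43.

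Genes of the pluripotency network were mostly higher in iPS. Of 38 such genes with a probe, 37 were compared, 33 were at least 2-fold higher, none was lower and 4 were within 2-fold (31 higher when counted from 4.78), with a median log2 difference of 2.55 over the 38, against -0.01 over all genes compared. Their median level was 8.85 in iPS and 4.68 in 2WND+2W+D, and it lay between 4.69 and 4.81 on the other 3 arrays. All 37 reached 4.78 on the iPS array and 16 did on the 2WND+2W+D array, so the filter partly sets the absence of lower genes. Nanog, a homeodomain factor of the naive network, was at 12.15 in iPS and 4.75 in 2WND+2W+D, with 5.26 in Day0, 5.52 in 2WND and 5.00 in 2WND+2W+D+2W-D, so it was high on the iPS array alone and at least 166-fold above 2WND+2W+D. Tdgf1, which encodes the Nodal co-receptor CRIPTO, was at 11.13 in iPS and 3.17 in 2WND+2W+D (at least 81.2-fold), and between 2.94 and 3.26 elsewhere. Tcl1, a co-activator of the kinase AKT, was at 10.97 in iPS and 4.70 in 2WND+2W+D (at least 72.7-fold). The same pattern, high in iPS and near or below 4.78 on the 2WND+2W+D array, held for Nr0b1 (DAX1, an orphan nuclear receptor, 10.12 and 3.17), Dppa4 (a chromatin protein of the early embryo, 9.87 and 4.06) and Fbxo15 (an F-box gene that serves as a classical reporter of reprogramming, 10.20 and 4.09). Mybl2, a MYB factor that drives mitotic genes, was at 11.26 in iPS and 5.56 in 2WND+2W+D (51.9-fold).

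The 4 reprogramming factors did not follow 1 pattern. Sox2 was at 10.74 in iPS and 4.40 in 2WND+2W+D, with 5.76 in Day0, 6.50 in 2WND and 7.01 in 2WND+2W+D+2W-D, so the Dox-treated cells had the lowest level of the 5 arrays, and iPS was at least 62.1-fold above them. Pou5f1, which encodes OCT4, was at 6.61 in iPS and 5.32 in 2WND+2W+D, a difference of 1.30 (2.46-fold), and between 5.09 and 5.51 on the other arrays. The values of Klf4 were within 2-fold, at 9.60 in iPS and 9.12 in 2WND+2W+D, against 6.18 in Day0 and 8.65 in 2WND. Myc was lower in iPS, at 7.25, against 8.37 in 2WND+2W+D (2.17-fold). Whether these probes read the transcript of the Dox-driven cassette was not tested. The other members within 2-fold were Klf2 (0.85), Etv4 (0.82) and Trim71 (0.60). Of the fucosyltransferases that can make the SSEA-1 epitope, Fut9 was higher in iPS, at 5.85, against 4.22 in 2WND+2W+D (at least 2.09-fold), and Fut4 lay below 4.78 on both arrays (3.44 in iPS and 4.65 in 2WND+2W+D).

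Genes of the primed, postimplantation-like state were also mostly higher in iPS, with 6 of 8 higher and 1 lower (median 1.66). Otx2, a homeobox gene of the epiblast, was at 8.09 in iPS and 3.93 in 2WND+2W+D (at least 9.93-fold), and Pou3f1 (OCT6) was at 7.63 and 4.49 (at least 7.18-fold). The exception was Cdh2 (N-cadherin), also a gene of mesenchymal cells, at 6.77 in iPS and 9.28 in 2WND+2W+D. Genes of the early germ layers and trophoblast showed no common direction, with 4 of 16 compared higher and 3 lower (2 and 2 counted from 4.78; median 0.18 over the 19 with a probe). These are 25.0% and 18.8%, against 16.1% and 16.9% over all genes compared. Tfap2c, a factor of trophoblast and primordial germ cells, was the highest by difference, at 7.42 in iPS and 3.15 in 2WND+2W+D. Foxa2 and Gata6, endoderm factors that lung epithelium also uses, were lower, at 5.12 and 5.04 in iPS, against 8.11 and 7.25 in 2WND+2W+D.

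An octamer motif to which OCT4 and related POU factors bind, TTTGCAT, was searched on both strands in promoter windows of 250 bases before to 50 after each start site, from RefSeq (GRCm38.p6). It was present in 5 of the 28 windows of the pluripotency genes (17.9%), which cover 23 of the 38 genes, and in 4.63% of all promoters and 3.58% of those of the genes compared. It was in 5.88% of windows of genes at least 8-fold higher in iPS and in 4.74% of those at least 8-fold lower, and in 4.06% and 4.08% at 2-fold or more. It was also in 4 of 27 windows of the fibroblast list (14.8%), a list lower in iPS, so these shares do not separate the genes higher from those lower. The stretches before the start sites of Nanog and Sox2, transcription factors that were both at least 62.1-fold higher in iPS, are shown for where this motif lies, with the matches of TTTGCAT and of CCAAT (described with the cell cycle genes) on either strand in capitals. The Nanog match begins 75 bases and the Sox2 match, on the reverse strand, 99 bases before the start site. A match describes the sequence and is no evidence of binding.
Nanog, chr6:122707369-122707488 (+): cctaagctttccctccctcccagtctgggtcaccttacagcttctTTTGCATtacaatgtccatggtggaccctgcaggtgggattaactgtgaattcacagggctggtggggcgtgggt
Sox2, chr3:34649875-34649994 (+): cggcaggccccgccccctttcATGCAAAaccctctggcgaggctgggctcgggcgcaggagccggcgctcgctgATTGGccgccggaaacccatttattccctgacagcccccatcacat

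Genes of the germline were mostly higher in iPS as well. Of 28 genes of the germline and the two-cell stage with a probe, 22 were compared, 18 were higher, 4 were within 2-fold and none was lower (14 higher counted from 4.78), with a median of 1.75 over the 28, or 1.003 with low values raised. All 22 reached 4.78 on the iPS array, and 6 did on the 2WND+2W+D array. A member that passed the filter through the iPS array alone could not be lower, so the filter partly sets this result. Of the two-cell genes, Zscan4c, Tcstv1 and Tcstv3 lay below 4.78 on both arrays, Zscan4d differed by 0.75, Usp17lc was at 4.87 in iPS and 2.13 in 2WND+2W+D, and Zfp352 was at 6.75 and 4.20 (at least 3.90-fold). The largest difference was that of Mael, which acts with Mov10l1 and Rnf17 in the piRNA pathway that silences transposons in germ cells. Mael was at 8.71 in iPS and 3.11 in 2WND+2W+D, and between 3.20 and 3.52 on the other arrays (at least 15.2-fold). Tex19.1 was at 8.64 in iPS and 5.07 in 2WND+2W+D (11.9-fold), and the RNA-binding germ cell gene Dazl was at 7.68 and 3.48. Rhox5, a homeobox gene of an X-linked cluster of related copies, was at 8.64 in iPS and 5.11 in 2WND+2W+D (11.6-fold), and probes of such copies can read one another's transcripts. The same holds for Fthl17e, an X-linked ferritin-like gene of a multigene family, at 10.15 in iPS and 2.73 in 2WND+2W+D (at least 41.3-fold). Kit, the receptor of stem cell factor that germ cells need, was at 9.90 in iPS and 4.63 in 2WND+2W+D (at least 34.8-fold).

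Regulators of DNA methylation were more often higher than lower in iPS. Of 13 genes, 7 were higher and 2 lower in iPS (median 1.26). These are 53.8% and 15.4%, against 16.1% and 16.9% over all genes compared. Tet1, which oxidises methylcytosine, was at 10.11 in iPS and 5.46 in 2WND+2W+D (25.0-fold), whereas its relative Tet3 was lower, at 6.14 in iPS and 7.70 in 2WND+2W+D (2.95-fold). Uhrf1, which brings the maintenance methyltransferase to replicating DNA, was 13.4-fold higher, at 10.51 in iPS and 6.76 in 2WND+2W+D. Dnmt3l and Dnmt3b, a cofactor and an enzyme of de novo methylation, were at 8.45 and 8.75 in iPS, against 4.69 and 5.30 in 2WND+2W+D. Mbd2, a reader of methylated DNA, was 2.62-fold lower in iPS. Among 30 chromatin regulators, 18 were higher and none was lower (median 1.21). The remodeler gene Hells was at 9.75 in iPS and 5.52 in 2WND+2W+D (18.7-fold), and Phc1 and Ezh2, of Polycomb repressive complexes, were 9.10-fold and 6.58-fold higher.

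**Figure D2:**
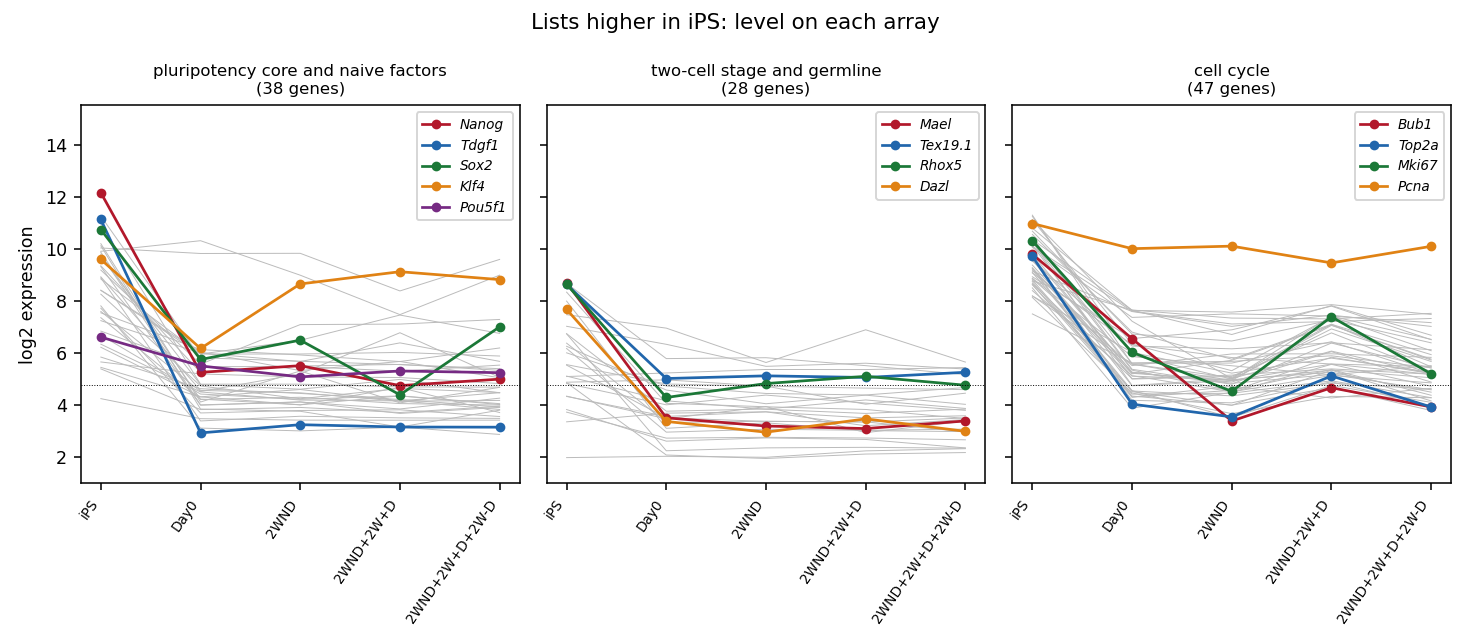
Log2 expression of every gene with a probe in 3 lists (grey lines, 1 line a gene across the 5 arrays, with named genes in color), with the dotted line at 4.78. Nearly all pluripotency genes and all 47 cell cycle genes lie higher on the iPS array than on the 2WND+2W+D array, while Klf4 is within 2-fold and Pou5f1 is at 6.61 in iPS and 5.32 in 2WND+2W+D.

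Genes of DNA replication and mitosis were higher in iPS. All 47 of the list with a probe were at least 2-fold higher, with a median difference of 3.69, and their median level was 9.53 in iPS and 5.97 in 2WND+2W+D, against 5.52 in Day0, 5.02 in 2WND and 5.26 in 2WND+2W+D+2W-D. The smallest differences were those of Rrm1 (1.13), Tyms (1.46) and Pcna (1.51), genes of nucleotide supply and replication. Bub1, a kinase of the spindle checkpoint, was at 9.79 in iPS and 4.67 in 2WND+2W+D (at least 32.3-fold). Top2a (topoisomerase II alpha) was at 9.72 in iPS and 5.12 in 2WND+2W+D (24.1-fold), with 4.04 in Day0, 3.55 in 2WND and 3.93 in 2WND+2W+D+2W-D. The Dox-treated cells thus had the highest Top2a level among the 4 arrays of lung cells, and iPS lay far above them. Genes of DNA repair and of telomeres were higher too, with 22 of 23 higher and none lower (21 counted from 4.78; median 2.92). Exo1, a nuclease of mismatch repair and end resection, was at 9.52 in iPS and 4.89 in 2WND+2W+D (24.8-fold), and the helicase gene Blm at 9.60 and 5.49 (17.4-fold). Lig3, a DNA ligase gene, was the member within 2-fold (0.83).

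Cyclins of G1 phase and the brakes of the cycle showed no common direction. Of 27 genes of D-type cyclins, cyclin-dependent kinase inhibitors, the retinoblastoma family and p53 targets, 5 were higher, 5 lower and 17 within 2-fold (median 0.15). Each share is 18.5%, against 16.1% higher and 16.9% lower over all genes compared, so the list was close to genes at large. Ccnd2 and Ccnd1, cyclins D2 and D1 of G1 phase, were lower in iPS, at 9.75 and 9.11, against 12.46 and 10.98 in 2WND+2W+D. The inhibitor gene Cdkn2b (p15) was also lower, at 7.46 in iPS and 9.11 in 2WND+2W+D (3.14-fold), as was the death receptor gene Fas (3.75-fold). Eda2r and Pmaip1 (NOXA), both p53 targets, were 4.32-fold and 4.08-fold higher in iPS.

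Promoters of the cell cycle genes were searched for CCAAT, the box bound by the factor NF-Y, and TTTGAA, the cell cycle homology region bound by DREAM and MuvB complexes, on both strands in the same windows. CCAAT was in 30 of the 42 windows of cell cycle genes (71.4%) and TTTGAA in 16 (38.1%). Over all promoters these motifs were in 37.4% and 17.9%, and over the genes compared in 36.9% and 12.2%. Among genes at least 8-fold higher in iPS the shares were 54.6% and 26.8%, and among genes at least 8-fold lower 35.4% and 16.4%. The promoters of Ccnb2 (cyclin B2), Top2a and Cdk1 are shown because each holds several of these boxes. Capitals mark CCAAT and TTTGAA on either strand, so that ATTGG and TTCAAA are reverse matches. In Ccnb2 the CCAAT boxes begin 87, 54 and 21 bases before the start site.
Ccnb2, chr9:70421555-70421674 (-): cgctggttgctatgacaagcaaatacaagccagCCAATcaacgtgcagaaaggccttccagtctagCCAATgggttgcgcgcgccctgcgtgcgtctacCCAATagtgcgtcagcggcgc
Top2a, chr11:99024190-99024389 (-): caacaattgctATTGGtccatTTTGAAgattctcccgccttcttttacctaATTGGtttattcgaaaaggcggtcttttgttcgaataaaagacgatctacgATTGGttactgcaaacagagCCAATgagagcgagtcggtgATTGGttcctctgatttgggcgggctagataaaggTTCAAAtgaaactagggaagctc
Cdk1, chr10:69352913-69353032 (-): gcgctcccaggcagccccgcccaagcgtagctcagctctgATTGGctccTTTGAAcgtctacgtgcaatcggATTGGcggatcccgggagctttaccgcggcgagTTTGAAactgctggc
Ccnb2 was at 4.19 on the log2 difference scale and Cdk1 at 3.72, both higher in iPS. The CArG box of smooth muscle promoters, searched likewise, was in 1 of 16 windows of smooth muscle genes and in 1.63% of all promoters.

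Metabolic genes that accompany rapid growth were higher in iPS. Of 25 genes of one-carbon, amino acid and nucleotide metabolism, 20 were higher and none lower (median 1.53). Slc38a4, an amino acid transporter gene, stood apart in its pattern, at 11.09 in iPS and 4.39 in 2WND+2W+D, against 9.79 in Day0, 9.25 in 2WND and 8.43 in 2WND+2W+D+2W-D. The Dox-treated cells were the low array here, at least 79.2-fold below iPS and also below every other array of lung cells. Gldc and Amt, of the glycine cleavage system, were at 8.52 and 9.18 in iPS, against 3.38 and 5.94 in 2WND+2W+D. Of 21 glycolysis genes 9 were higher and none lower (median 0.72). Slc2a3, the glucose transporter GLUT3, was at 11.67 in iPS and 6.00 in 2WND+2W+D (51.0-fold), and Ldhb, a lactate dehydrogenase subunit, was 6.52-fold higher, whereas Ldha differed by 0.04. Over all genes compared 67.0% were within 2-fold. So were most genes of cholesterol and fatty acid synthesis (15 of 20, with 1 higher and 4 lower). Scd1, a desaturase that AEC-II cells use for surfactant lipid, was the lowest of them by difference, at 8.36 in iPS and 11.69 in 2WND+2W+D (10.0-fold). Outside the lists, Trh, the precursor of thyrotropin-releasing hormone, was at 10.96 in iPS and 4.89 in 2WND+2W+D (67.3-fold), and Fmr1nb, an X-linked gene of testis, at 10.70 and 4.44 (at least 60.4-fold).

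**Figure D3:**
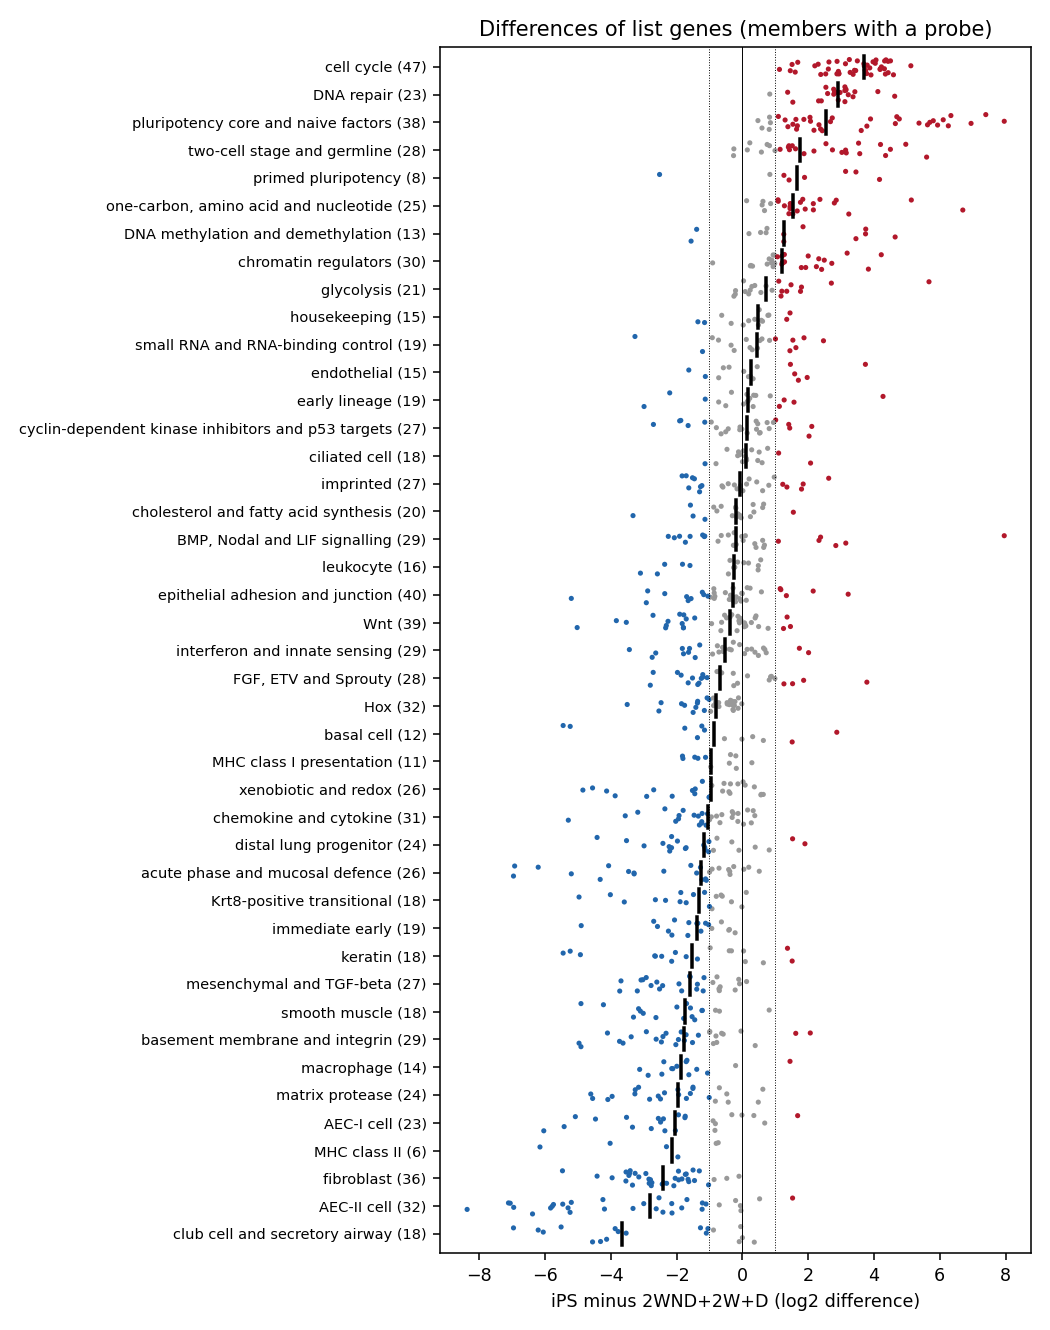
Log2 difference, iPS minus 2WND+2W+D, of every list gene with a probe (1 point a gene, the number of genes in brackets), with red and blue points at least 2-fold higher and lower in iPS, and the list median as a black bar. Medians run from -3.65 for club cell genes (-2.27 with low values raised, above the -2.81 of AEC-II genes) to 3.69 for cell cycle genes. The list of Y-linked genes and Xist is not drawn.

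On the other side, the AEC-II program was lower in iPS. Of 32 AEC-II genes, 26 were lower, 1 was higher and 5 were within 2-fold (24 lower counted from 4.78), with a median of -2.81. Sftpc, which encodes surfactant protein C, was at 5.06 in iPS and 13.43 in 2WND+2W+D (330-fold), and between 13.43 and 13.49 on the other arrays, which is close to the highest value in the table, 13.58. Its signal was thus flat at the top of the scale on the lung arrays, and 330-fold may understate the difference, which was not tested. Slc34a2, the phosphate transporter of AEC-II cells, was at 5.48 in iPS and 12.54 in 2WND+2W+D (133-fold), and Sftpb (surfactant protein B) at 5.09 and 12.04 (124-fold). Lamp3, of the lamellar body, was at 3.55 in iPS and 9.01 in 2WND+2W+D (at least 18.7-fold), against 12.54 in Day0. All 4 genes were at 9.01 or above in the Dox-treated cells and at 5.48 or below in iPS. Also among the largest differences were Cxcl15, a lung chemokine (3.71 in iPS and 10.82 in 2WND+2W+D), and Napsa, a protease that processes surfactant protein B (5.57 and 11.40). The exception was Etv5, an ETS factor of AEC-II cells that is also active in pluripotent cells, at 10.38 in iPS and 8.86 in 2WND+2W+D, and 12.21 in Day0. Genes within 2-fold included Fabp5 (0.52) and Slc31a1 (-0.04).

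Other lung epithelial programs were lower too. Of 23 AEC-I genes 15 were lower and 1 higher (median -2.04), with Ager at 5.43 in iPS and 11.46 in 2WND+2W+D (65.6-fold) and the water channel gene Aqp5 at 4.11 and 9.18 (at least 21.1-fold). Hopx lay below 4.78 on both arrays, at 4.37 in iPS and 4.69 in 2WND+2W+D, and Pdpn differed by -0.01. The exception was Igfbp2, at 9.95 in iPS and 8.27 in 2WND+2W+D. Of 24 genes of distal lung progenitors 16 were lower and 2, Etv5 and Mycn, were higher (15 lower counted from 4.78; median -1.16), and the lung lineage factor Nkx2-1 was at 4.75 in iPS and 7.17 in 2WND+2W+D. Of the progenitor integrins, Itgb4 was 3.27-fold lower, whereas Itga6 differed by 0.39. Of 18 club and secretory airway genes 13 were lower and none higher (10 lower counted from 4.78). Their median was -3.65, or -2.27 with low values raised and -2.81 with probes averaged. Hp (haptoglobin) was at 5.18 in iPS and 11.39 in 2WND+2W+D (73.8-fold), and Retnla, which macrophages also make, at 3.63 and 10.59 (at least 56.1-fold). Ciliated cell genes were the contrast, with 15 of 18 within 2-fold (2 higher, 1 lower, median 0.11). Their median level was 5.10 in iPS and 5.00 in 2WND+2W+D, but 7.65 in Day0, 7.54 in 2WND and 8.05 in 2WND+2W+D+2W-D, so both arrays compared were low.

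Several genes lower in iPS had their highest level on the 2WND+2W+D array, some of them by far. Ctse, which encodes cathepsin E, was at 4.98 in iPS and 11.91 in 2WND+2W+D (121-fold), with 4.76 in Day0, 6.19 in 2WND and 5.88 in 2WND+2W+D+2W-D. Sprr2b, a small proline-rich gene of squamous epithelium with close copies, was at 5.69 in iPS and 12.02 in 2WND+2W+D (80.1-fold), and between 6.05 and 6.32 elsewhere. The keratin genes Krt16, Krt6a and Krt14, of stratified and stressed epithelium, were at 4.15, 3.72 and 5.23 in iPS, against 9.08, 9.17 and 10.47 in 2WND+2W+D. For Krt16 the other 3 arrays lay between 3.42 and 3.74, while Krt14 was at 8.66 in 2WND. Over the keratin list 10 of 17 compared were lower and 2, Krt17 and Krt42, were higher (median -1.54 over the 18 with a probe). Gabrp, a GABA receptor subunit gene of airway epithelium, was at 5.20 in iPS and 11.25 in 2WND+2W+D (66.3-fold), and between 7.35 and 8.21 elsewhere. Abi3bp, a matrix protein gene, and Ptn, the growth factor pleiotrophin, were at 4.41 and 4.54 in iPS, against 10.70 and 10.53 in 2WND+2W+D, and no other array exceeded 7.36 and 6.80 for them. Among Krt8-positive transitional genes, 11 of 17 compared were lower and none higher (median -1.32), with Itgb6, the TGF-β-activating integrin subunit, at 3.40 in iPS and 8.37 in 2WND+2W+D. Of 12 basal cell genes 6 were lower and 2 higher (4 and 2 counted from 4.78; median -0.85). Aqp3, the larger exception, was at 9.16 in iPS and 6.29 in 2WND+2W+D.

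Genes of epithelial adhesion and junctions were mostly within 2-fold, as were genes at large. Of 40 genes of epithelial adhesion and junctions, 25 were within 2-fold, 10 were lower and 5 higher (median -0.29), and over all genes compared 67.0% were within 2-fold. Cdh1 (E-cadherin) was at 11.24 in iPS and 11.56 in 2WND+2W+D, and Epcam was at 8.74 and 7.59 (2.22-fold higher). Grhl3 and Cldn6, an epithelial transcription factor and an embryonic claudin, were higher in iPS, at 8.12 and 7.70, against 4.91 and 5.55 in 2WND+2W+D. Muc1, Ocln and Cldn1 were lower in iPS, by 36.8-fold, 5.13-fold and 7.35-fold. The apical mucin gene and some junction genes therefore differed while E-cadherin did not pass 2-fold.

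Genes of mesenchymal cells and of the matrix were lower in iPS. Of 36 fibroblast genes 33 were lower and none higher (32 counted from 4.78), with a median of -2.41, and their median level was 7.93 in iPS and 10.64 in 2WND+2W+D, against 5.41 in Day0. Both arrays thus lay above the freshly isolated cells for these genes. Col1a1, a chain of type I collagen, was at 8.78 in iPS and 12.22 in 2WND+2W+D, with 6.14 in Day0, 10.21 in 2WND and 10.68 in 2WND+2W+D+2W-D. Fbln5, of elastic fibers, was at 5.57 in iPS and 11.03 in 2WND+2W+D (44.3-fold). Bgn (biglycan) was within 2-fold, at 12.37 in iPS and 13.22 in 2WND+2W+D. The fibroblast markers were above 4.78 on both arrays, as given above, and the part of feeder cells in these levels was not tested. Of 18 smooth muscle genes 15 were lower and none higher (14 counted from 4.78; median -1.74). Acta2 (α-smooth muscle actin) was at 9.32 in iPS and 11.94 in 2WND+2W+D (6.18-fold), and 6.51, 8.29 and 8.85 in Day0, 2WND and 2WND+2W+D+2W-D, so iPS was above the other arrays and below the Dox-treated cells. Itga8 was at 4.67 in iPS and 9.58 in 2WND+2W+D (at least 27.8-fold), and Actg2, an enteric smooth muscle actin, at 5.31 and 9.53 (18.7-fold).

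Of 27 genes of mesenchymal transition and TGF-β signaling 18 were lower and none higher (median -1.59). Tgfb3 was at 7.63 in iPS and 11.36 in 2WND+2W+D (13.2-fold), and Cdh11, a mesenchymal cadherin, at 7.76 and 11.45 (12.9-fold). Fn1 and Vim (fibronectin and vimentin) were within 2-fold, at -0.71 and -0.67. Of 29 basement membrane and integrin genes 18 were lower and 2, Lama1 and Nid2, were higher (median -1.76). Lama1 encodes the laminin chain of the first embryonic basement membranes, and it was at 6.87 in iPS and 4.81 in 2WND+2W+D (4.18-fold), whereas Lamb3, of epithelial laminin-332, was at 5.93 and 10.03. Of 24 matrix protease genes 18 were lower and none higher (median -1.95), with Adamts5 at 4.99 in iPS and 9.60 in 2WND+2W+D (24.4-fold). Igfbp5, a secreted binder of insulin-like growth factors, was at 4.50 in iPS and 10.69 in 2WND+2W+D (at least 60.1-fold), and Mal, a protein of apical transport, at 4.27 and 10.75 (at least 62.5-fold).

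**Figure D4:**
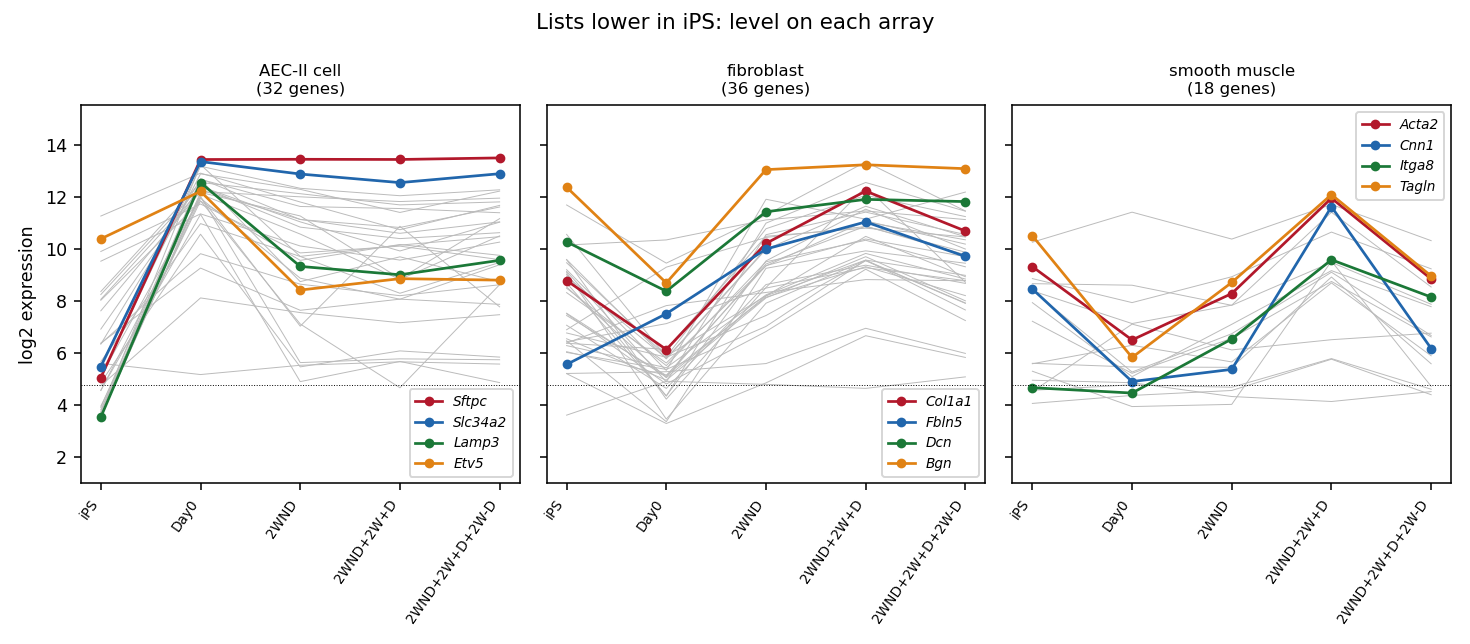
Log2 expression of every gene with a probe of the AEC-II, fibroblast and smooth muscle lists on the 5 arrays (grey lines, named genes in color), with the dotted line at 4.78. Sftpc and Slc34a2 are low on the iPS array alone, and Cnn1 and Acta2 are highest on the 2WND+2W+D array.

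Signaling genes differed in both directions, and those of the FGF and Wnt lists were more often lower than higher in iPS. In the FGF family and its targets, 4 of 28 were higher and 12 lower (11 lower counted from 4.78; median -0.69). Fgf4, the autocrine ligand of pluripotent cells, was at 9.35 in iPS and 5.57 in 2WND+2W+D (13.8-fold). The mesenchymal ligands Fgf7 and Fgf10 were lower, at 6.54 and 5.46 in iPS, against 9.25 and 7.32 in 2WND+2W+D, and so was their epithelial receptor Fgfr2 (6.55 and 8.53). Among Wnt genes 14 of 34 compared were lower and 2, Lef1 and Wnt3, were higher (1 higher counted from 4.78; median -0.37 over the 39 with a probe). Lgr5, a receptor of R-spondins and a stem cell marker of several epithelia, was at 4.23 in iPS and 9.25 in 2WND+2W+D (at least 22.2-fold), and between 3.95 and 4.72 on the other arrays, so it was high in the Dox-treated cells alone. In the BMP, Nodal and LIF pathways 6 of 29 were higher (5 counted from 4.78) and 8 lower (median -0.19). These are 20.7% and 27.6%, against 16.1% and 16.9% over all genes compared. For the FGF list the shares were 14.3% and 42.9%, and for the Wnt list 5.9% and 41.2%. The Nodal antagonist Lefty1 was 5.20-fold higher and the ligand Bmp7 8.84-fold higher, whereas Id3 and Id1, targets of BMP signaling, differed by -2.07 and -1.16. Stat3, the effector of LIF, differed by -1.59.

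Hox genes were lower in iPS or within 2-fold, and imprinted genes had no common direction. Of 32 Hox genes with a probe 24 were compared, 12 were lower and none higher (6 lower counted from 4.78; median -0.81 over the 32). Over all genes compared 16.1% were higher and 16.9% lower. Of the 24 Hox genes, 9 reached 4.78 on the iPS array and 23 did on the 2WND+2W+D array. A member that passed the filter through the 2WND+2W+D array alone could not be higher, so the filter partly sets the absence of higher genes. Hoxc8 was at 4.73 in iPS and 8.23 in 2WND+2W+D (at least 10.9-fold), with 4.20 in Day0, 5.20 in 2WND and 6.37 in 2WND+2W+D+2W-D. Of 26 imprinted genes compared 4 were higher and 8 lower (3 and 6 counted from 4.78, with a median of -0.06 over the 27 with a probe). These are 15.4% and 30.8%, against 16.1% and 16.9% over all genes compared. Phlda2, expressed from the maternal copy, was at 7.75 in iPS and 5.13 in 2WND+2W+D (6.17-fold), and Peg10, expressed from the paternal copy, was 3.60-fold higher. Rian, a noncoding RNA of the Dlk1-Dio3 locus whose silencing is known in some mouse iPS lines, was at 7.51 in iPS and 8.78 in 2WND+2W+D, against 3.97 in Day0, 5.54 in 2WND and 5.49 in 2WND+2W+D+2W-D. Its neighbor Meg3 was near 4.78 on both, at 4.66 in iPS and 4.82 in 2WND+2W+D.

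MicroRNA genes had low values on this platform, whose probes read precursors or overlapping transcripts and not mature microRNAs. Of 478 with a probe 164 were compared, 13 were higher (7.93%) and 33 lower (20.1%), or 5 and 22 when counted from 4.78. The shares over all genes compared were 16.1% and 16.9%, so the lower share was not far from that of genes at large. Mir20a, of the 17-92 cluster that promotes proliferation, was at 7.26 in iPS and 4.23 in 2WND+2W+D, with 6.14 in Day0 and 5.41 in 2WND. Mir17, Mir18 and Mir19a of the same cluster lay below 4.78 on both arrays. Mir363, of the paralogous X-linked cluster, was at 5.69 in iPS and 2.33 in 2WND+2W+D. Mir302d, of the cluster that marks pluripotent cells, lay below 4.78 on both arrays, at 4.64 in iPS and 2.84 in 2WND+2W+D. Mir290a, of the other such cluster, was at 2.73 in iPS and 2.27 in 2WND+2W+D. On the lower side, Mir27a and Mir23a, neighbors on chromosome 8, were at 4.82 and 4.63 in iPS, against 8.33 and 7.51 in 2WND+2W+D. Mir200c, of an epithelial family, was at 3.20 in iPS and 6.51 in 2WND+2W+D, and between 2.99 and 3.17 elsewhere. The rest of its family did not follow it. Mir200a and Mir200b differed by -0.36 and -0.14, and Mir141 was at 3.67 in iPS and 2.04 in 2WND+2W+D. Of 6 compared in the Dlk1-Dio3 locus 4 were lower, among them Mir329, at 5.88 in iPS and 7.68 in 2WND+2W+D. The mature sequences (RefSeq, GRCm38.p6) are shown with the seed, bases 2 to 8, in capitals, for some of the members named above. Of these, Mir302d was not compared and Mir363 was at least 1.88-fold higher when counted from 4.78, short of 2-fold. The seeds of miR-20a-5p and miR-302d-3p share the run AAGUGC, and those of miR-23a-3p and miR-27a-3p share UCACA.
miR-20a-5p: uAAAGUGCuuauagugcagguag
miR-302d-3p: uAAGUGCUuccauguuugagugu
miR-363-3p: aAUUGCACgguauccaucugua
miR-23a-3p: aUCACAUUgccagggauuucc
miR-27a-3p: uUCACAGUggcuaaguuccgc
miR-200c-3p: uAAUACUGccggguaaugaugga
miR-329-3p: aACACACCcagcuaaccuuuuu

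A larger share of genes was higher in iPS on the X chromosome than on any autosome. Of 516 X-linked genes compared 136 were higher (26.4%) and 69 lower (13.4%), with a median difference of 0.28. On the 19 autosomes the share of higher genes ran from 13.9% to 18.4% and the median difference from -0.13 to 0.05. Among genes that differed by less than 4-fold, the median was 0.19 on the X chromosome and -0.01 on the autosomes. Of Xist and the Y-linked genes listed, 6 had a probe and 4 were compared, and these were lower in iPS. Xist, the RNA that coats the inactive X chromosome, was at 4.74 in iPS and 8.85 in 2WND+2W+D, with 4.08 in Day0, 5.27 in 2WND and 5.37 in 2WND+2W+D+2W-D. It was thus high on the 2WND+2W+D array alone (at least 16.7-fold above iPS). The Y-linked genes Eif2s3y, Uty and Kdm5d were at 3.31, 4.16 and 4.53 in iPS, all below 4.78, against 5.92, 6.54 and 6.55 in 2WND+2W+D. On Day0 they were at 6.62, 7.35 and 6.90. The 2 arrays therefore differ in sex-linked RNA, the sex of the animals, the feeders and the iPS cells is not given in the sources used here, and the parts of sex, source of the cells and cell state in the X-linked differences cannot be told apart.

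**Figure D5:**
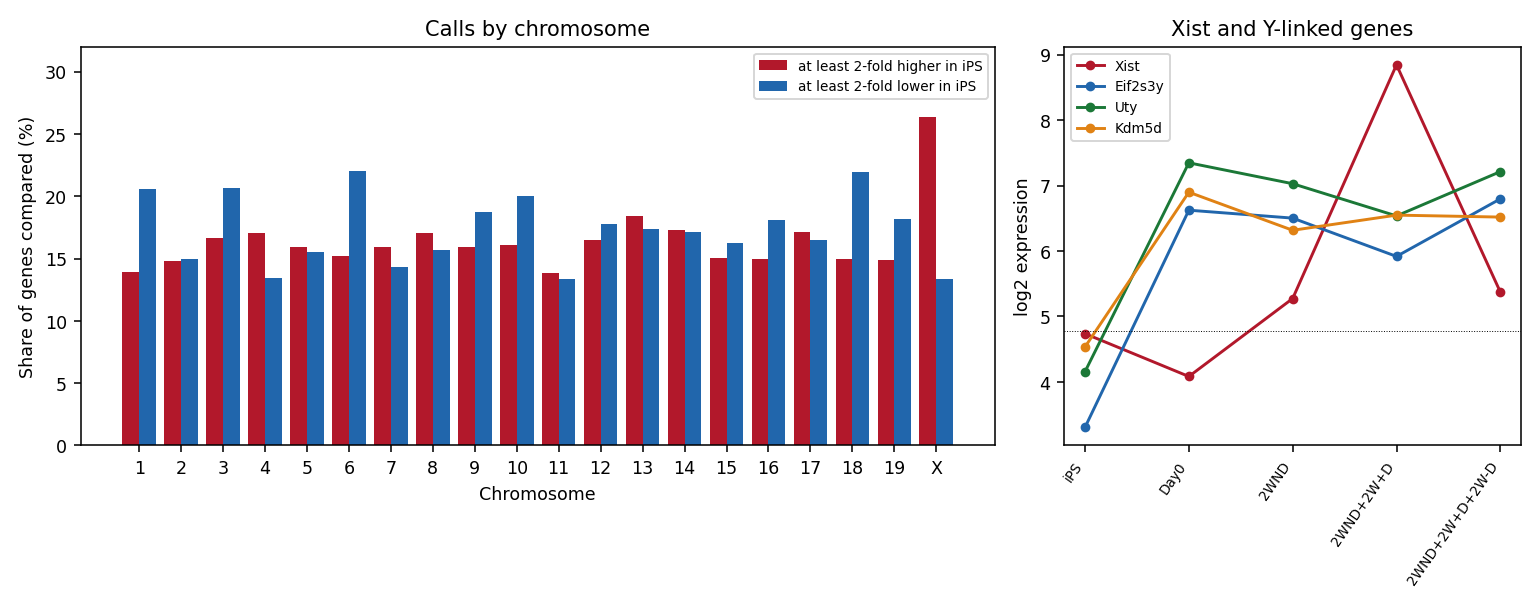
Left, share of the genes compared on each chromosome that were at least 2-fold higher (red) or lower (blue) in iPS than in 2WND+2W+D, with 26.4% higher on the X chromosome. Right, log2 expression of Xist and 3 Y-linked genes on the 5 arrays, with Xist highest on the 2WND+2W+D array and the Y-linked genes below 4.78 (dotted line) on the iPS array alone.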

How the data were processed

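RNA of 5 conditions was hybridized to Affymetrix Mouse Gene 2.0 ST arrays, 1 array per condition. The authors processed them with Affymetrix Expression Console, named in the submitters' processing notes, and deposited expression values for 41345 probes. The deposited values were read as log2, since their scale is not stated and their maximum is 13.58, and every fold rests on that reading. The summarization algorithm, program version, normalization between arrays and genome build are not given in the sources used here. The deposited values were not changed. Detection calls and signal over background were not used, and the number of arrays limits the precision.

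Of the probes, 23521 have 1 gene symbol in the platform annotation, 1820 several and 16004 none, and only the first kind was named. By gene identifier 23328 were matched to RefSeq (GRCm38.p6) and 193 kept the platform symbol. A gene with several probes was represented by the one with the highest mean. The comparison is a difference of log2 values called at 2-fold, with no test. The calling rule was tried on simulated data with changes set well past the threshold, which checks the rule and not the results. The members and the 44 gene lists (1033 genes) were chosen with earlier results of these data known. Some genes stand in several lists. Named genes are the 15 most different in each direction with low values raised to the median of all values (predicted genes, small RNAs and receptor families left out), the members of each list with the largest differences or against its majority, and genes the study names. A few others were named after their values were seen, such as Krt16, Bgn, Ldha, Ccnb2 and Cdk1. Alternatives changed the normalization, filter, probe choice, low values, threshold and gene set. Promoters, microRNAs and motif shares come from RefSeq tables. Python 3.11.15, numpy 2.4.6, pandas 2.3.3 and matplotlib 3.10.9 were used.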

Additional observations from a re-analysis of the deposited data

How the results depend on the processing

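No paired analysis was possible because each condition has 1 array. With all probes of the table in place of named genes, 3783 probes passed 2-fold upward in iPS and 4095 downward, and at a 4-fold threshold 842 and 899 genes did. Under the other alternatives the counts lay between 1936 and 2653 higher and between 2132 and 2700 lower, including the removal of genes of chromosomes X and Y (2354 and 2539), which was chosen after seeing the data. The higher genes made up 47.6% to 51.8% of calls, and with array medians aligned they outnumbered the lower ones (2653 and 2469). A list median or named gene is called moved here when it shifted by at least 0.23, the robust spread between 2WND+2W+D+2W-D and 2WND. Quantile normalization and aligned array medians moved none of the 44 list medians. Raising low values moved 10, and averaging probes moved 2, MHC class I presentation (to -0.44) and club cell genes (to -2.81). With low values raised the medians of the leukocyte and endothelial lists were 0.00, and those of the basal cell, Hox and xenobiotic lists -0.20, -0.33 and -0.60. Of 30 named genes, raising low values moved 14, by up to 2.05 for Fthl17e, and averaging probes moved 1, Mybl2, by 0.86. These 30 are the 15 most different genes in each direction, and the other named genes were not put through the alternatives. None of the 30 and no list median changed sign. Signal over background is not known, so differences near 4.78 are bounds.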

Other observations

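Immune and defence genes that passed 2-fold were mostly lower in iPS, though in several groups about as many or more were within 2-fold. Of 11 genes of MHC class I presentation 5 were lower and none higher (median -0.96, or -0.44 with probes averaged), with B2m at 10.80 in iPS and 12.15 in 2WND+2W+D. Of 6 MHC class II genes 4 were lower and none higher (median -2.13), and H2-Aa was at 4.30 in iPS and 10.45 in 2WND+2W+D (at least 51.0-fold). Of 27 genes of interferon response and innate sensing compared 9 were lower and 2 higher (7 and 1 counted from 4.78; median -0.53 over the 29 with a probe). The RNA sensors Tlr3 and Ifih1 were at 5.00 and 4.95 in iPS, against 8.44 and 7.59 in 2WND+2W+D, whereas Bst2 (tetherin) was 3.33-fold higher. Of 28 chemokine and cytokine genes compared 16 were lower and none higher (15 counted from 4.78; median -1.06 over the 31 with a probe), with Il18 at 3.32 in iPS and 8.62 in 2WND+2W+D. Of 22 genes of the acute phase and mucosal defence compared 16 were lower and none higher (14 counted from 4.78; median -1.25 over the 26 with a probe). Macrophage genes were lower for 12 of 14 (10 counted from 4.78; median -1.85), such as C1qb, of complement, at 4.91 in iPS and 7.77 in 2WND+2W+D, against 10.61 in 2WND. Cd68, a lysosomal glycoprotein gene, was the exception, at 10.52 in iPS and 9.07 in 2WND+2W+D. Of 10 leukocyte genes compared 5 were lower and none higher (4 counted from 4.78; median -0.26 over the 16 with a probe).

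Other groups held further contrasts. Of 13 endothelial genes compared 5 were higher and 2 lower (4 and 1 counted from 4.78; median 0.25 over the 15 with a probe). Pecam1 encodes CD31, an antigen that the sort of the AEC-II cells excludes and that mouse pluripotent cells also carry, and it was at 8.47 in iPS and 4.73 in 2WND+2W+D (at least 12.9-fold). Kdr, the VEGF receptor that marks endothelium, differed by -0.72. Of 19 immediate early genes 14 were lower and none higher (median -1.37), with Fosb at 4.63 in iPS and 9.53 in 2WND+2W+D. Of 25 xenobiotic and redox genes compared 13 were lower and none higher (10 counted from 4.78; median -0.97 over the 26 with a probe), with Cyp2f2, a club cell cytochrome gene, at 5.48 in iPS and 10.04 in 2WND+2W+D. Among 18 genes of RNA binding and small RNA control compared 6 were higher and 2 lower (median 0.46 over the 19 with a probe). Mbnl1, a splicing regulator that favors differentiated isoforms, was lower in iPS, at 7.92, against 11.18 in 2WND+2W+D (9.61-fold), and Lin28a, which blocks let-7 maturation, was 2.90-fold higher.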
